A study of Mus musculus with 18 samples.

Results

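Chemokines are small secreted proteins that draw leukocytes and microglia along a gradient by binding G protein-coupled receptors. CC and CXC ligands such as Ccl2 and Cxcl10 are made by stressed or stimulated glia and immune cells, whereas Cx3cl1, also called fractalkine, sits on the membrane of neurons and binds Cx3cr1 on microglia. Cxcl12 and its receptor Cxcr4 are a constitutively made pair that guides migrating cells and growing axons.

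The members described here were the 9 genes Ccl2, Ccl3, Ccl4, Ccl5, Ccl12, Cxcl10, Cxcl12, Cx3cl1 and Cxcr4. They were taken by gene symbol from the platform annotation, as 9 of 17658 annotated genes, and 12 probes of the array stood for them. Ccl4 had 2 probes, Cxcl12 had 3 and each of the others had 1. Where a gene had several probes, the probe with the highest mean over all arrays was used as its main probe. In the RefSeq annotation (GRCm38.p6) the 5 CC ligands all lay on chromosome 11. There Ccl2, Ccl7, Ccl11, Ccl12, Ccl8 and Ccl1 were neighbours in this order, and Ccl5, Ccl9, Ccl6, Ccl3 and Ccl4 formed the other run. Cxcl10 was on chromosome 5, Cxcl12 on 6, Cx3cl1 on 8 and Cxcr4 on 1.

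Retinas came from male C57BL/6J and DBA/2J mice aged 60 to 90 days, either controls or mice examined 2 days or 5 days after optic nerve crush, a brief squeeze of the nerve with forceps behind the eye. Each of the 6 groups had 3 arrays, and each array held RNA pooled from 2 retinas. Both are inbred strains without a transgene, and the labels name no treatment beyond the crush. The study's methods describe anaesthesia with Rompum and Ketalar and a small cut in the conjunctiva for the crush. No sham operation of the array controls is described, so anaesthesia and surgery cannot be told apart from the crush. Levels are in the units of the study's scale, which centres the log2 values of each array at 8 with an SD of 2. Over the arrays 1 unit was worth 0.51 to 0.66 log2, at the median 1.47-fold.

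Median signals lay between 131.5 and 210.4, and precision is limited by there being 3 arrays a group. Probes are called where limma, fitted to all 18 arrays, gave an adjusted p under 0.03, and only these are said to rise or fall. The rod gene Gnat1 had a mean of 22.98 units in the controls of each strain. In Glo1, which differs between the strains, 2 of the 2-day arrays resembled the opposite strain: replicate 3 of C57BL/6J and replicate 1 of DBA/2J. They had 17.75 and 16.31 units, against 15.55 to 15.86 in C57BL/6J and 17.37 to 17.88 in DBA/2J controls. Alad had 14.64 and 12.74 units on these arrays, against 11.83 to 12.98 and 14.54 to 15.05 in the same controls. Gpnmb had 7.58 and 9.42 units on them, against 8.77 to 9.41 and 7.34 to 7.53. The labels were kept as given. Replicate 1 of the C57BL/6J controls had the female transcript Xist at 11.27 units, against a male label, where the other 17 arrays had 6.89 to 7.55. The mean of 7 lens genes ranged from 7.06 to 15.99 units and was highest in replicate 3 of the C57BL/6J controls.

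The stretch before the start site is shown for Cxcl10 and Ccl12, the members with the largest called rises in a single strain and in both strains together. RefSeq (GRCm38.p6) gave it for 6 of the 9 members. Shown are the 250 bases upstream, 5′ to 3′ on the strand of the gene, of Cxcl10 (minus strand, chr5:92348890-92349139) and Ccl12 (plus strand, chr11:82101595-82101844). Capitals mark matches to GAAANNGAA, the core of the interferon-stimulated response element, and to GGGNNNTTC, a form of the kappa-B element.
Cxcl10: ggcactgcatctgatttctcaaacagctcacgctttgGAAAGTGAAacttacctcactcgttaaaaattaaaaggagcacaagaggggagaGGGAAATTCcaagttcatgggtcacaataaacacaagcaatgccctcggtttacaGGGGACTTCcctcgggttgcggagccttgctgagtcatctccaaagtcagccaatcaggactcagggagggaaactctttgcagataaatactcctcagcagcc
Ccl12: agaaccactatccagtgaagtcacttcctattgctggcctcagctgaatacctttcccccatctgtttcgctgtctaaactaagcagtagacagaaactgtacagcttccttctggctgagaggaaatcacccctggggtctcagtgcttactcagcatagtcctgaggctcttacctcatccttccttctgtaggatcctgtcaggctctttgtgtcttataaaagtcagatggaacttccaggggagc

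Cxcl10 had 1 match to GAAANNGAA, starting 213 bases before the start site, and 2 matches to GGGNNNTTC, starting 159 and 104 bases before it. On both strands of the other windows, Ccl3 held 1 match to GAAANNGAA, Cxcr4 held 1 to GGGNNNTTC, and Ccl12, Cxcl12 and Cx3cl1 held neither. Another motif, TTCNNNGAA, the form of the interferon-gamma activated site, was matched in 0 of the 6 windows. Over 32851 windows of the same length, 7.13% held GAAANNGAA, 11.8% held GGGNNNTTC and 7.02% held TTCNNNGAA. The matches did not overlap each other.

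At 5 days after crush, 4 member genes were called in the mean over both strains: the ligands Ccl12, Ccl4 and Cxcl10 rose and Cx3cl1 fell. The fit called 3 of the 12 member probes higher and 1 lower, beside 2.74% and 2.06% of all 46116 probes. Within C57BL/6J, Cxcl10 rose and Cx3cl1 fell, so that 2 of 12 probes were called, beside 1.36% of all probes. Within DBA/2J, limma called 0 of the 12, beside 0.0672% of all probes, and 3 had an unadjusted p under 0.05, beside 11.3%, and SAM also called 0. The median change of the 12 probes was 0.26 units in C57BL/6J and 0.12 in DBA/2J, against -0.06 and -0.04 over all probes. In C57BL/6J, 4 of the 12 had every 5-day array above every control and 2 had them all below, beside 9.58% and 15.5% of all probes. In DBA/2J these counts were 2 and 1, beside 7% and 10.5%.

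**Figure D1:**
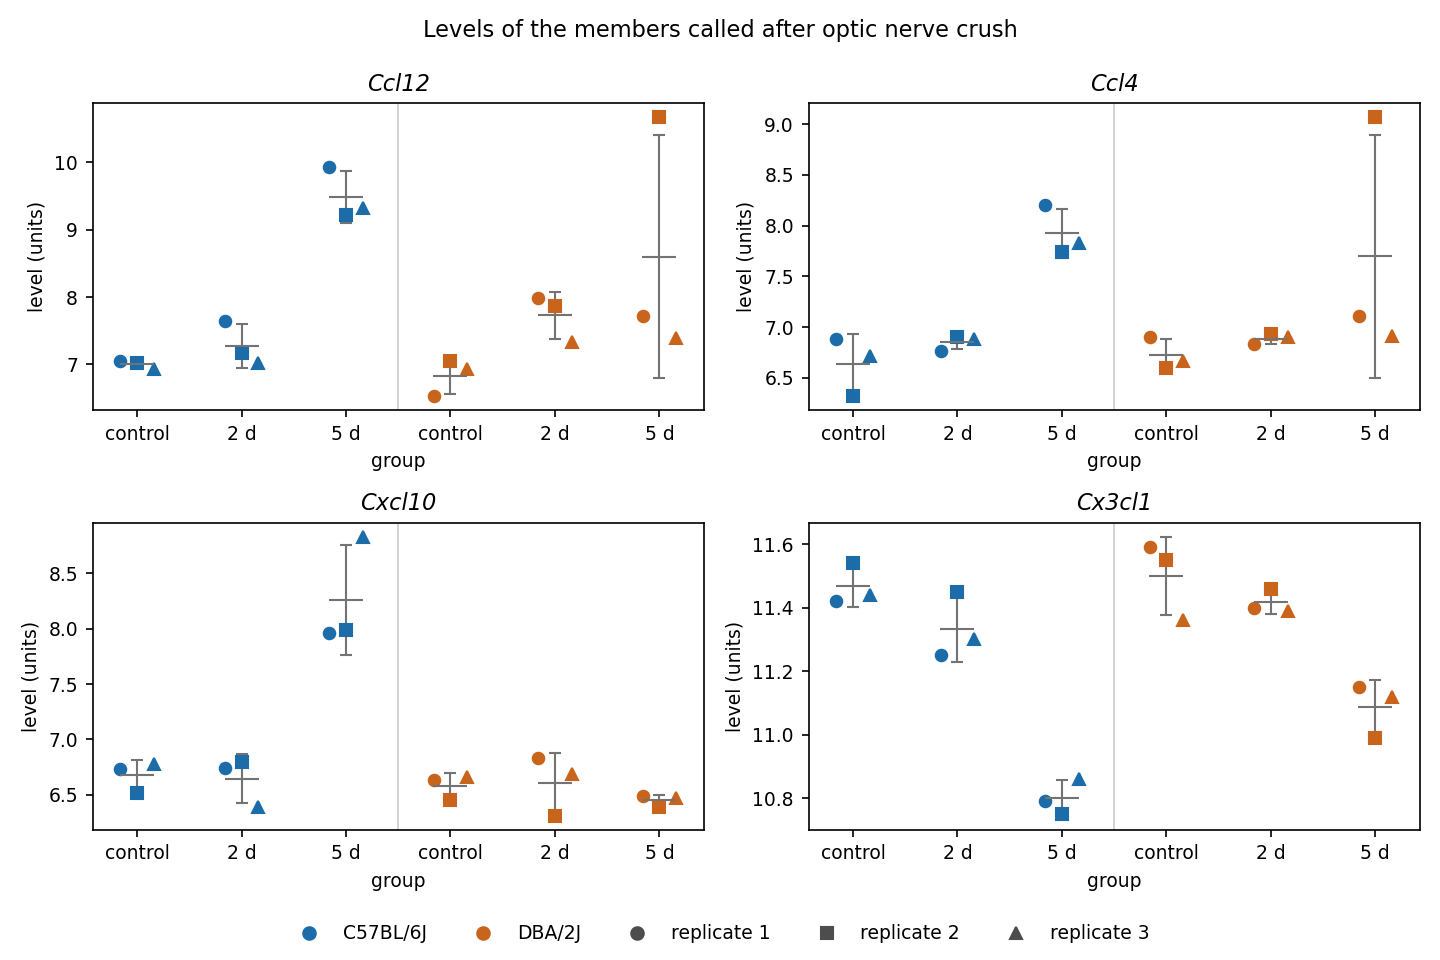
Level in units (vertical axis) of the main probes of Ccl12, Ccl4, Cxcl10 and Cx3cl1 in the 6 groups, by strain (colour) and replicate (marker). Grey lines are group means with 1 SD over 3 arrays. The 3 Cxcl10 values of C57BL/6J at 5 days lie between 7.96 and 8.83, and replicate 2 of DBA/2J at 5 days stands at 10.67 for Ccl12.

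Cxcl10, a ligand of Cxcr3 that interferon induces, had 6.73, 6.52 and 6.78 units in the C57BL/6J controls. At 2 days the arrays had 6.74, 6.80 and 6.39 units, and at 5 days 7.96, 7.99 and 8.83. All 3 arrays at 5 days lay above every control and 2-day array of the strain, and the 2-day arrays overlapped the controls. Cxcl10 rose by 1.59 ± 0.20 units (SE, n = 3 against 3, 95% interval 1.16 to 2.01) over the controls, with an adjusted p of 0.00149 by limma. In place 34 of all probes by p, this call held in each of the 15 alternative settings that gave it a value, with adjusted p between 0.00049 and 0.0256. The probe was dim, at a median percentile of 11.5 of its array, and its control level was not shown to be above background, so no fold is given.

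In DBA/2J, Cxcl10 had 6.63, 6.45 and 6.66 units in the controls, 6.83, 6.31 and 6.69 at 2 days and 6.49, 6.39 and 6.47 at 5 days. The groups overlapped throughout, and no array of this strain reached the lowest C57BL/6J value at 5 days. The change at 5 days was -0.13 units (95% interval -0.56 to 0.30, adjusted p = 0.872 by limma). The change in DBA/2J minus that in C57BL/6J was -1.72 ± 0.28 units (95% interval -2.32 to -1.11). Its unadjusted p was 2.4e-05, place 2 of all probes in that test, but its adjusted p was 0.554 by limma, so the difference between the strains did not pass the correction. It was called in 0 of the 21 alternatives, whose adjusted p lay between 0.114 and 1. In this test limma called 0 of the 12 members, beside 0% of all probes, and 2 had an unadjusted p under 0.05, Cxcl10 and Cxcr4, beside 4.23%.

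Between 2 and 5 days in C57BL/6J, Cxcl10 rose by 1.62 ± 0.20 units, the only call among the 12 member probes, beside 0.0304% of all probes (adjusted p = 0.00793 by limma). The call was lost in 5 of 15 alternatives, with adjusted p from 0.00224 to 0.481 over the 15. These were the fit to only the 6 arrays compared (0.481), median centring (0.0464), and the fits without replicate 2 of the 2-day arrays (0.0378), without replicate 3 (0.0548) and without both 2-day arrays near the other strain (0.0536). The difference was 1.33 to 1.77 units over the arrays left out in turn. In both strains together at 5 days it rose by 0.73 ± 0.14 units (adjusted p = 0.00759), a mean of a change of 1.59 and of -0.13.

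Ccl12, a mouse ligand of Ccr2 that attracts monocytes, showed the largest difference of any member. The C57BL/6J controls had 7.05, 7.02 and 6.94 units, the 2-day arrays 7.64, 7.17 and 7.02 and the 5-day arrays 9.93, 9.22 and 9.32. The 5-day arrays lay above all controls, while the 2-day arrays overlapped them. The difference of 2.49 ± 0.58 units at 5 days had an adjusted p of 0.0364 by limma and was not called. It passed in 5 of 16 alternatives and in SAM, with adjusted p between 0.00523 and 0.114 over the 16.

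In DBA/2J, Ccl12 had 6.53, 7.05 and 6.93 units in the controls, 7.98, 7.87 and 7.33 at 2 days and 7.72, 10.67 and 7.40 at 5 days. The arrays of both injured groups lay above all controls, and the mean at 5 days was set by replicate 2. The difference was 0.89 units at 2 days, or 0.76 without the 2-day arrays near the other strain, and 1.76 ± 0.58 at 5 days, with adjusted p of 0.225 at 5 days by limma. Without replicate 2 it was 0.72 units at 5 days. Over both strains, Ccl12 rose by 2.12 ± 0.41 units (adjusted p = 0.00715), which held in each of the 22 alternatives, and by 1.61 units without replicate 2 of DBA/2J (adjusted p = 0.000284).

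The difference between the strains in the 5-day change of Ccl12 was -0.73 units with all arrays. Without replicate 2 of DBA/2J it was -1.77 units (unadjusted p = 0.000127, adjusted p = 0.863). Ccl4 then changed by 0.28 units in DBA/2J against 1.28 in C57BL/6J (unadjusted p of the difference 0.000579, adjusted p = 0.966), and neither difference was called by limma.

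Ccl4, a CC ligand of the macrophage inflammatory protein group, read 6.88, 6.32 and 6.72 units by its main probe on the control arrays of C57BL/6J. Its 2-day arrays had 6.77, 6.90 and 6.88 units and its 5-day arrays 8.20, 7.74 and 7.83. DBA/2J controls had 6.90, 6.60 and 6.67 units, 2-day arrays 6.83, 6.93 and 6.90 and 5-day arrays 7.11, 9.07 and 6.91. In each strain the 5-day arrays lay above all controls, in DBA/2J closely so for replicates 1 and 3. Over both strains Ccl4 rose by 1.13 ± 0.27 units, with an adjusted p of 0.0229 by limma. The call was lost in 11 of 21 alternatives, 9 of which left out 1 of the control arrays of either strain or 1 of the C57BL/6J 5-day arrays, with adjusted p up to 0.0534.

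The second Ccl4 probe, annotated to the same transcript, did not show this. It read 6.42 to 7.09 units over all 18 arrays and changed by -0.00 units over both strains at 5 days (95% interval -0.24 to 0.24), so the rise of Ccl4 rests on 1 of its 2 probes.

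Ccl2, Ccl3 and Ccl5 were not called in any comparison. Ccl2, the other main ligand of Ccr2, had 6.77 to 7.23 units on 17 arrays and 8.83 on replicate 2 of DBA/2J at 5 days. In C57BL/6J its change at 5 days was -0.01 units (95% interval -0.76 to 0.75), where Ccl12, a neighbour on chromosome 11, had 2.49. Ccl3, close kin of Ccl4, had 6.71, 6.35 and 6.80 units in C57BL/6J controls and 7.09, 6.96 and 6.95 at 5 days. These 2 groups did not overlap, though in DBA/2J the controls (6.55 to 6.63) overlapped the 5-day arrays (6.59, 7.70 and 6.88). Its change over both strains was 0.43 ± 0.16 units, with an adjusted p of 0.123 by limma.

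Ccl5, which attracts T cells and macrophages, had 7.14, 6.50 and 6.70 units in C57BL/6J controls and 7.34, 7.12 and 7.35 at 5 days. The groups overlapped, since control replicate 1 exceeded 1 of the 5-day arrays. The difference was 0.49 ± 0.19 units in C57BL/6J (adjusted p = 0.181) and 0.23 ± 0.19 in DBA/2J (adjusted p = 0.725 by limma).

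**Figure D2:**
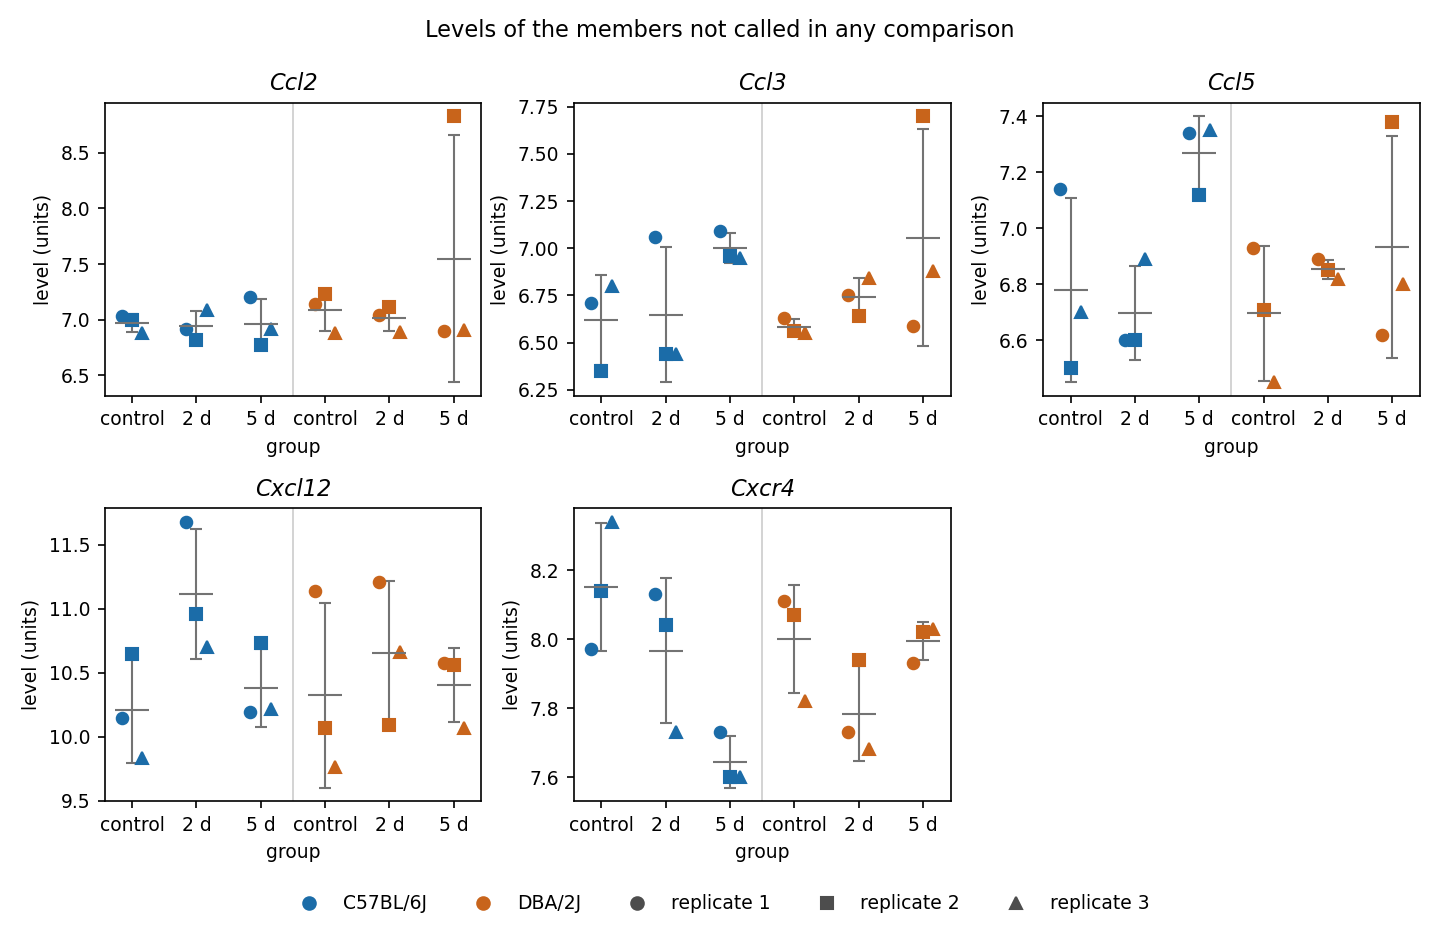
Level in units (vertical axis) of the main probes of Ccl2, Ccl3, Ccl5, Cxcl12 and Cxcr4 in the 6 groups, by strain (colour) and replicate (marker), with group means and 1 SD over 3 arrays in grey. Replicate 2 of DBA/2J at 5 days is the highest of its group for Ccl2 at 8.83, Ccl3 at 7.70 and Ccl5 at 7.38.

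The array labelled DBA/2J 5 days replicate 2 stood apart for the CC ligands. Relative to the mean of the other 2 arrays of its group it was higher by 3.11 units for Ccl12, 2.06 for the main probe of Ccl4, 1.93 for Ccl2, 0.96 for Ccl3 and 0.67 for Ccl5. For the second Ccl4 probe it was higher by only 0.25 units, and 16.8% of all probes had a larger excess. Of all probes, 0.0282% had a larger excess than Ccl12. The same excess was -0.09 units for Cxcl10, -0.15 for Cx3cl1, 0.04 for Cxcr4 and 0.23 for the main probe of Cxcl12.

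The same array was the highest of its group for 16 of 31 other chemokine ligands, such as Cxcl1 (9.68 units, against 7.25 and 7.79) and Ccl7 (8.45 against 7.20 and 7.21), which were picked after their values were seen. It was also the highest for 8 of 11 microglia genes and 11 of 14 interferon-induced genes, and over all probes for 32.3%. Mean levels of the microglia genes were 8.49 units on it and 7.56 and 7.55 on the other two, and the part of these genes in the chemokine values was not tested.

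Cx3cl1 was the brightest member, at a median percentile of 91.9 of its array. It had 11.42, 11.54 and 11.44 units in C57BL/6J controls, 11.25, 11.45 and 11.30 at 2 days and 10.79, 10.75 and 10.86 at 5 days. In DBA/2J the controls had 11.59, 11.55 and 11.36, the 2-day arrays 11.40, 11.46 and 11.39 and the 5-day arrays 11.15, 10.99 and 11.12. In both strains the 5-day arrays lay below every control and every 2-day array. Cx3cl1 fell by 0.67 units in C57BL/6J (SE 0.09, adjusted p = 0.00274 by limma), or 1.38-fold after quantile normalization, and by 0.54 units over both strains (adjusted p = 0.000408). The change of -0.41 units in DBA/2J (95% interval -0.61 to -0.22) had an adjusted p of 0.0789 and was not called.

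Ganglion cell markers, neuronal genes of the cells whose axons were crushed, were lower in the same arrays. Of 9 measured, 3 fell in C57BL/6J at 5 days, 0 were called in DBA/2J and 3 fell over both strains. All 9 had a negative difference in each strain, but Nefl (-0.12 and -0.10 units) and Pou4f1 (-0.08 and -0.06) were dim and barely changed. The medians of all probes were -0.06 in C57BL/6J and -0.04 in DBA/2J. After quantile normalization Pou4f1 changed by 0.01 log2 in C57BL/6J. Their median differences were -0.63 units in C57BL/6J and -1.10 in DBA/2J. The mean level of the 9 genes was 10.79 to 11.10 units in C57BL/6J controls, 10.45 to 10.49 at 2 days and 9.79, 9.55 and 10.07 at 5 days, and in DBA/2J 10.95 to 11.08 in controls and 10.15, 10.01 and 10.15 at 5 days.

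Rbpms, an RNA-binding protein of ganglion cells, fell by 2.71 units in C57BL/6J (SE 0.27, adjusted p = 0.000305), the surface protein Thy1 by 2.55 (SE 0.44, adjusted p = 0.00952) and Chrna6, a nicotinic receptor subunit, by 1.80 (SE 0.24, adjusted p = 0.00227 by limma). With median centring the falls of Rbpms and Chrna6 in C57BL/6J were kept (adjusted p = 0.000275 and 0.0102) and that of Thy1 was lost (0.161). Fewer cells of a type and less RNA per cell cannot be told apart in whole retina, and the part of ganglion cells in the Cx3cl1 values was not tested.

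The fall of Cx3cl1 depended on how the spread of each array was scaled. With log2 intensities centred on the array median, and their spread left as it was, Cx3cl1 changed by -0.06 log2 in C57BL/6J (adjusted p = 0.83), -0.14 in DBA/2J (adjusted p = 0.849) and -0.10 over both (adjusted p = 0.567), and was called in none of them by limma. The centred values of the C57BL/6J 5-day arrays were 2.11, 2.07 and 2.51 log2, which overlapped the controls at 2.15, 2.37 and 2.36. 1 unit stood for 0.51 to 0.56 log2 in the C57BL/6J controls and for 0.58 to 0.66 in the 5-day arrays. Over all probes this centring moved the share of rises among the calls from 50.3% to 94.6% in C57BL/6J and from 57% to 93.2% over both strains. Of the member calls over both strains, the rises of Ccl12, Ccl4 and Cxcl10 were kept (adjusted p = 0.00881, 0.0242 and 0.0144).

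**Figure D3:**
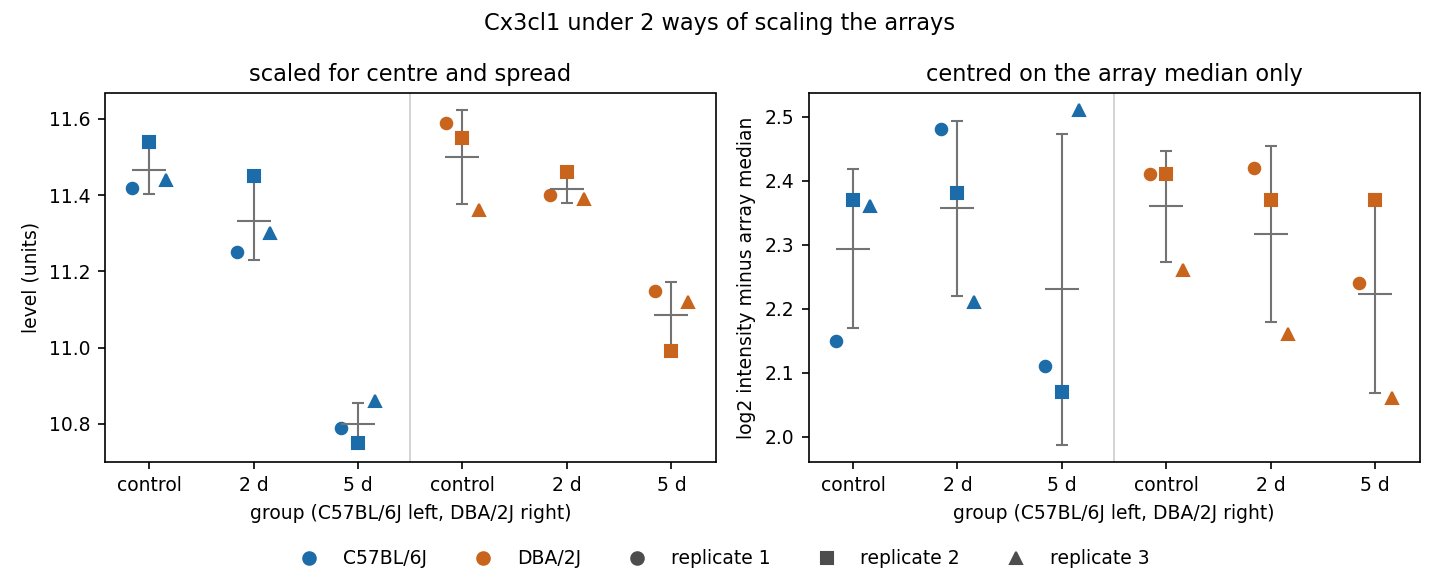
Cx3cl1 in the 6 groups, in units on the left and as log2 intensity minus the array median on the right, by strain (colour) and replicate (marker), with group means and 1 SD over 3 arrays in grey. On the left all 5-day values lie below the controls, and on the right replicate 3 of C57BL/6J at 5 days is the highest value, at 2.51.

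Cxcr4, the receptor of Cxcl12, had 7.97, 8.14 and 8.34 units in C57BL/6J controls, 8.13, 8.04 and 7.73 at 2 days and 7.73, 7.60 and 7.60 at 5 days. Those 5-day arrays lay below all controls, and the difference of -0.51 ± 0.13 units had an adjusted p of 0.0505 by limma and was not called. In DBA/2J it had 8.11, 8.07 and 7.82 units in controls and 7.93, 8.02 and 8.03 at 5 days, which overlapped, with a change of -0.01 units. The strains differed in this change by 0.50 units (unadjusted p = 0.0145, adjusted p = 0.999).

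Cxcl12 was bright by its main probe, at a median percentile of 88.5. C57BL/6J controls had 10.15, 10.65 and 9.83 units, 2-day arrays 11.68, 10.96 and 10.70 and 5-day arrays 10.19, 10.73 and 10.22. The 2-day arrays lay above the controls, narrowly for replicate 3, and the 5-day arrays overlapped them. The 2-day difference was 0.90 ± 0.37 units (unadjusted p = 0.027, adjusted p = 0.596 by limma), and 0 of the 12 member probes were called at 2 days in C57BL/6J, beside 0.0195% of all probes, where 1 had an unadjusted p under 0.05, beside 7.47%. DBA/2J had 11.14, 10.07 and 9.76 units in controls, 11.21, 10.09 and 10.66 at 2 days and 10.58, 10.56 and 10.07 at 5 days, all overlapping. The other 2 Cxcl12 probes, annotated to another transcript version, read 7.28 to 8.10 and 6.45 to 7.26 units and were not called.

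Among the other comparisons, limma called 0 of the 12 member probes in DBA/2J at 2 days, beside 0% of all probes, and 0 had an unadjusted p under 0.05, beside 6.39%. Over both strains at 2 days it called 0, beside 0.18%, and 2 had an unadjusted p under 0.05, beside 9.6%. Between 2 and 5 days in DBA/2J it called 0, beside 0%, with 1 member under 0.05, beside 4.88%. Between the control retinas of the strains it called 0, beside 0.00434%, with 0 members under 0.05, beside 6.93%. The 2-day change differed between the strains for 0 members, beside 0%, with 0 under 0.05, beside 4.14%. SAM, where it compared 2 groups, called none of the members there either.

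**Figure D4:**
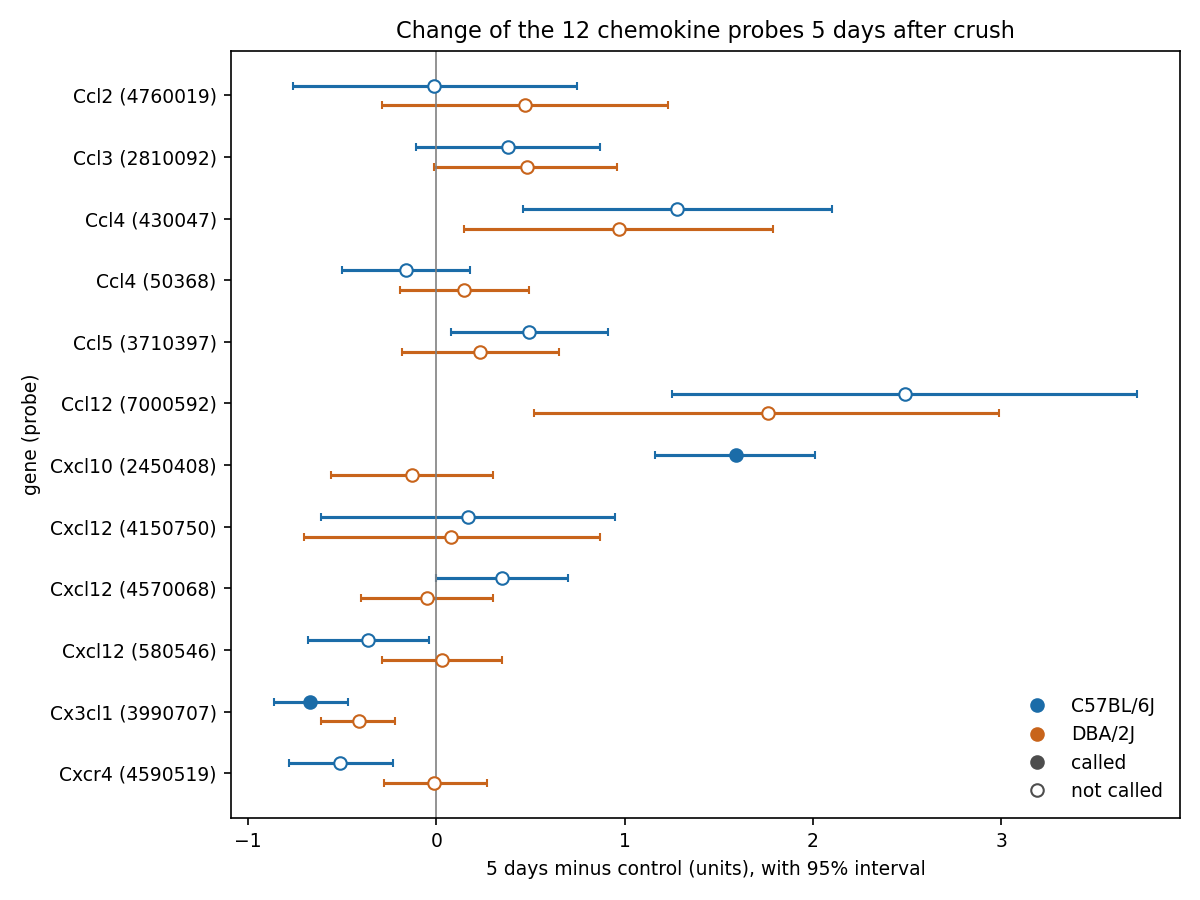
Difference in units between 5 days and control (horizontal axis) for the 12 probes (vertical axis), by strain, with the 95% interval from the limma fit. Filled points are called: Cxcl10 at 1.59 and Cx3cl1 at -0.67, both in C57BL/6J, and no probe in DBA/2J.

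Of the other 31 chemokine ligands measured, 0 were called at 5 days within either strain and 1 over both strains. This was Ccl1, which fell by 0.39 units over both strains (SE 0.08, adjusted p = 0.0106 by limma). Its group means were low, 7.06 to 7.47 units, and were not shown to be above background. The medians of the list were -0.10 units in C57BL/6J and -0.03 in DBA/2J, close to those of all probes. Cxcl9 and Cxcl11, which share the receptor Cxcr3 with Cxcl10, changed by 0.06 and -0.25 units in C57BL/6J at 5 days and were not called. They too were picked for this comparison with values known. The group means of Cxcl9 and Cxcl11, 7.00 to 7.38 units, were low and not shown to be above background.

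Of the other 22 receptors, only Cx3cr1, the receptor of Cx3cl1 on microglia, was called at 5 days. It had 7.19, 7.36 and 7.38 units in C57BL/6J controls and 8.41, 8.08 and 7.98 at 5 days, and 7.40, 7.37 and 7.47 against 7.69, 8.18 and 7.87 in DBA/2J. In both strains the 5-day arrays lay above all controls. Cx3cr1 rose by 0.85 ± 0.14 units in C57BL/6J (adjusted p = 0.00675) and by 0.67 ± 0.10 over both strains (adjusted p = 0.00131), while its difference of 0.50 in DBA/2J was not called (adjusted p = 0.142 by limma). With median centring its rises were kept (adjusted p = 0.00539 and 0.00116), unlike the fall of its ligand. Ccr2, the receptor of Ccl2 and Ccl12, changed by -0.13 units in C57BL/6J and -0.03 in DBA/2J, and Cxcr3 by -0.17 and 0.06, none of them called. Group means of Ccr2 were low, 7.29 to 7.49 units, and not shown to be above background, so its values cannot show whether Ccr2 changed.

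Of 16 signalling genes downstream of chemokine receptors, only Elmo1, an adaptor that links receptors to Rac and cell migration, was called at 5 days. Its levels were 13.74, 13.36 and 13.39 units in C57BL/6J controls and 11.29, 11.23 and 11.48 at 5 days, without overlap. It fell by 2.16 units in C57BL/6J (SE 0.19, adjusted p = 0.00017) and by 1.43 in DBA/2J (SE 0.19, adjusted p = 0.00756 by limma). With median centring the call was kept in C57BL/6J (adjusted p = 0.017) and lost in DBA/2J (0.13), where it was also lost without replicate 2 of the 5-day arrays (0.0413). Of 17 cytokines and transcription factors that induce chemokines, Irf9, which carries interferon signals to the nucleus, alone rose, by 1.88 ± 0.35 units in C57BL/6J (adjusted p = 0.0142) and 1.78 ± 0.25 over both strains (adjusted p = 0.00114). With median centring 2 of the 17 rose in C57BL/6J and 4 over both strains.

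Of 14 interferon-induced genes measured, 5 rose in C57BL/6J at 5 days, beside 1.36% of all probes called, and 0 were called in DBA/2J, beside 0.0672%. The list's median change was 1.49 units in C57BL/6J and 0.84 in DBA/2J, and 7 rose over both strains, beside 2.74% called higher. In C57BL/6J 11 of the 14 had a positive difference, and Ifit1 (-0.02 units), Oas1a (-0.12) and Mx1 (-0.06) did not. In DBA/2J these had -0.15, 0.01 and -0.38 units. Their group means, 6.16 to 7.11 units, were not shown to be above background. Isg15, a ubiquitin-like protein, rose by 1.41 ± 0.25 units in C57BL/6J (adjusted p = 0.0104) and had 0.57 ± 0.25 in DBA/2J (adjusted p = 0.394 by limma). The other rises in C57BL/6J were 1.92 units for Usp18, which removes Isg15 from proteins, 2.30 for the GTPase Gbp3, 1.57 for Oasl2 and 2.53 for the antiviral enzyme Rsad2, against 0.85, 1.11, 0.83 and 1.30 in DBA/2J, none called there. Psmb8, a subunit of the immunoproteasome, was called only over both strains, where it rose by 1.64 ± 0.37 units (adjusted p = 0.0166). In the test of the strain difference of the 5-day change, limma called 0 of these 14 genes, beside 0% of all probes. The list as a set was not tested for such a difference. Their mean level by array was 8.92, 8.50 and 8.68 units in C57BL/6J at 5 days, 7.50, 8.84 and 7.44 in DBA/2J at 5 days and 7.16 to 7.49 in the controls. On replicate 2 of DBA/2J this mean lay within the range of the C57BL/6J 5-day arrays, but single genes did not all do so. Isg15 (7.51 units) and Oasl2 (8.25) lay below their C57BL/6J ranges and Psmb8 (10.77) above its own. Cxcl10 was at 6.39 units on this 1 array, and a link between it and these genes was not tested.

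Of 11 microglia genes measured, 4 rose in C57BL/6J at 5 days, beside 1.36% of all probes called. In DBA/2J 0 were called, beside 0.0672%, and over both strains 6 rose, beside 2.74% called higher. Median changes of the list were 1.31, 0.73 and 0.93 units. In C57BL/6J 9 of the 11 had a positive difference, and Itgam (-0.05 units) and P2ry12 (-0.10) did not. In DBA/2J these had -0.15 and 0.00 units. Their group means, 6.34 to 6.97 units, were not shown to be above background. C1qc, a complement subunit, rose by 2.13 ± 0.39 units in C57BL/6J (adjusted p = 0.0129), its partner C1qb by 1.95 ± 0.37 (adjusted p = 0.0145), and Fcrls, a microglial Fc receptor-like protein, by 1.33 ± 0.21 (adjusted p = 0.00497 by limma). Beside these and Cx3cr1, C1qa and the signalling adaptor Tyrobp rose over both strains, by 0.93 and 1.02 units (adjusted p = 0.0169 and 0.0102). The mean of the 11 genes was 7.09 to 7.31 units over the control arrays and 8.26, 8.30 and 8.67 in C57BL/6J at 5 days. The part of microglia in the chemokine changes was not tested. Of 12 genes of infiltrating leukocytes, 0 were called at 5 days by limma and their mean stayed within 6.83 to 7.13 units on every array. The group means of the single genes were low, from 6.50 units (S100a8) to 7.54 (S100a9), and were not shown to be above background. The steady mean therefore cannot show whether leukocytes entered the retina. Nkg7 and Cd4 changed by -0.23 and -0.18 units over both strains (adjusted p = 0.076 and 0.247).

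Markers of the other cells of the eye gave few calls at 5 days. Of 6 Muller glia genes, the filament gene Gfap rose over both strains, by 2.51 ± 0.42 units (adjusted p = 0.00297), and of 7 vessel genes the pericyte gene Rgs5 rose, by 1.53 ± 0.24 in C57BL/6J (adjusted p = 0.00482) and 1.01 ± 0.17 over both (adjusted p = 0.00282). Over both strains the cone arrestin gene Arr3, of 6 rod and cone genes, fell by 1.62 units (SE 0.34, adjusted p = 0.0112) and Ckm, of 5 muscle genes, by 0.40 (SE 0.10, adjusted p = 0.0277 by limma). With median centring the rises of Gfap and Rgs5 were kept, and the falls of Arr3 and Ckm were lost (adjusted p = 0.244 and 0.0546), while 1 of the rod and cone genes was called higher. Of 7 lens, 6 pigment epithelium and 3 erythroid genes 0 were called by limma at 5 days. The median change of the 7 lens genes was -4.41 units in C57BL/6J, with 0 positive, and 0.92 in DBA/2J, with 6 positive. Over both strains, Bfsp2 and Mip of the lens had -0.69 and -2.07 units (unadjusted p = 0.0323 and 0.083), Tyr and Pmel of the pigment epithelium -0.15 and -0.20 (0.0521 and 0.0531), and Hba-a1 and Alas2 of erythroid cells -1.54 and -0.11 (0.00222 and 0.347). Their part in the chemokine values was not tested.

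**Figure D5:**
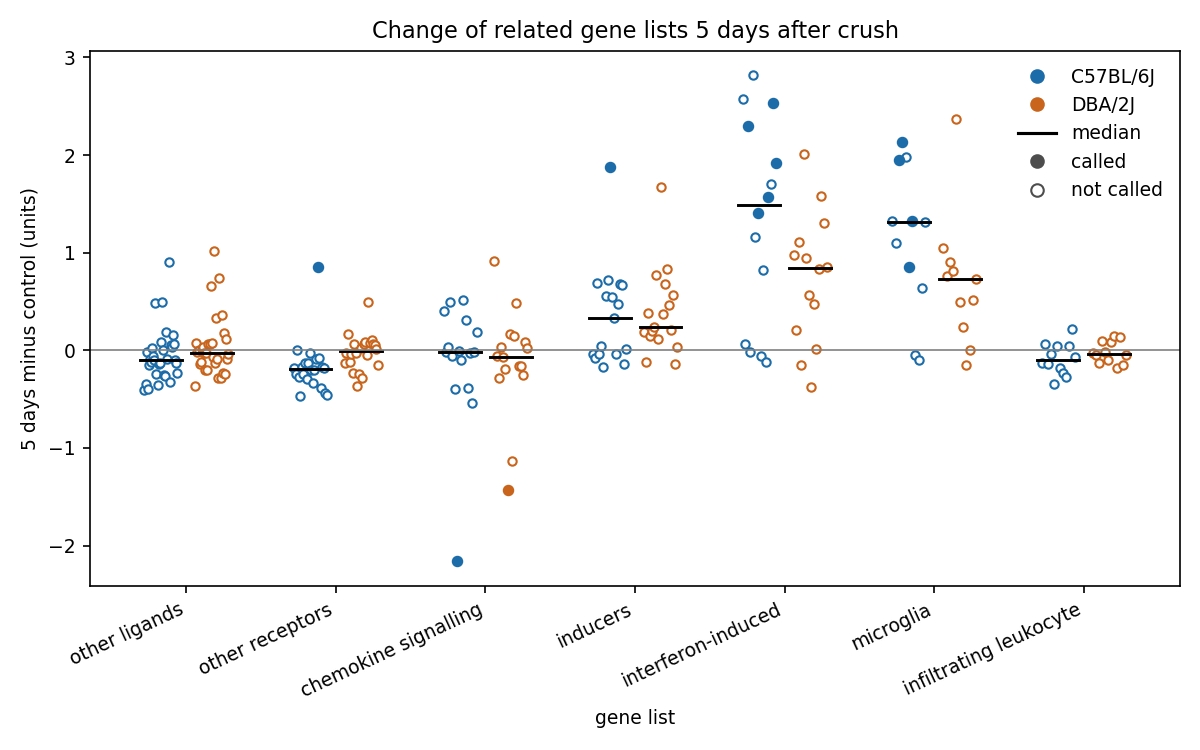
Difference in units between 5 days and control (vertical axis) for each measured gene of 7 lists (horizontal axis), by strain, with the list's median as a black line and called genes filled. Medians of the interferon-induced list are 1.49 units in C57BL/6J and 0.84 in DBA/2J, and those of infiltrating leukocytes -0.10 and -0.04.

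The genes whose levels ran most like the called members over the 18 arrays were sought among 11701 genes or fewer in the brighter part of the table. Ccl12 was nearest to Ifitm3 and Psmb8 (both r = 0.963) and Bcl2a1d (0.956), and Ccl4 to Bcl2a1b (0.953), Bcl2a1d (0.946) and Myo10 (0.94). Cxcl10 was nearest to Fcrls (0.946), Cdon (0.908) and Tmem159 (0.869), and Cx3cl1 to Rbpms (0.936), Sult4a1 (0.931) and Cd99l2 (0.929). The arrays share the group means and the scaling, so these values are a description. Bcl2a1b and Bcl2a1d are near-identical copies that the probes may not separate.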

How the data were processed

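Retinal RNA was hybridized to Illumina one-colour mouse arrays of 46116 probes, on 18 arrays in 6 groups of 3. The authors deposited the signal intensity of each probe without normalization, and, in a second table, scores that they made as 2 times the z-score of log2 intensity within an array plus 8. The aligner of probes to genes and a background correction are not given in the sources used here, nor is the BeadChip of an array, so a block for it could not be fitted. The intensities were put on the authors' scale, and all 12 member probes equalled the deposited scores within 0.02 units.

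limma 3.58.1 in R 4.3.3 (lmFit, contrasts.fit and eBayes, 12 residual and 2.88 prior degrees of freedom) tested 11 comparisons on all arrays, two-sided, with Benjamini-Hochberg adjustment over all probes and the study's threshold of 0.03. An exact permutation of 3 arrays against 3 cannot go below 0.1. The methods give 3 mice for each dataset and call the 3 samples of a group independent, each a pool of 2 retinas. They do not say which mice gave each pool, or whether pools shared a mouse, so p-values measure the spread between these pools.

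Alternatives were an intensity trend in eBayes, a threshold of 0.05, the authors' deposited scores, quantile normalization alone or after normexp (offset 50), the brighter 23058 probes, a replicate block, only the groups compared, SAM (all splits of the arrays, written for this work), the omission of both 2-day arrays near the other strain, and each array left out. Centring log2 intensity on the array median was added after seeing the data. The members, gene lists and motifs were chosen with earlier results of these data known.

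All member probes were described. From each list, genes called in any comparison were named, at most 6 by adjusted p, or else the 2 with the smallest p over both strains at 5 days, and other genes named are marked or serve a comparison with a member. The lists were other ligands, other receptors, chemokine signalling, inducers and interferon-induced genes, and markers of microglia, infiltrating leukocytes, ganglion cells, Muller glia, rods and cones, vessels, lens, pigment epithelium, muscle and erythroid cells. Equal replicate numbers correlated above 0.1 in every pair for C57BL/6J at 2 days (0.527, 0.476 and 0.317) and for DBA/2J between 2 and 5 days (0.202, 0.309 and 0.141), where the replicate block called 0 members, as without it. The fit was tested on simulated data. Python 3.11.15 and matplotlib 3.10.9 served for sequences and plots.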

Additional observations from a re-analysis of the deposited data

Results flagged for a closer look

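At 5 days every C57BL/6J array lay above the mean of its controls for Cxcl10 and every DBA/2J array below it. The DBA/2J arrays overlapped their controls, and that change was not called. The mean changes were 1.59 and -0.13 units, and the difference, DBA/2J minus C57BL/6J, was -1.72 units (unadjusted p = 2.4e-05, adjusted p = 0.554 by limma). It therefore did not pass the correction over all probes. With each array left out in turn the difference was -1.87 to -1.43 units.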

How the results depend on the processing

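The number of member probes called at 5 days in C57BL/6J was 2, and became 4 with SAM (Ccl4 and Ccl12 added) and 1 with log2 intensity centred on the array median (Cxcl10). Between 2 and 5 days in C57BL/6J it was 1, and became 0 with median centring, without both 2-day arrays near the other strain, with the brighter probes (where Cxcl10 is left out) and with only the arrays compared, and 2 with SAM, and it was 0 to 1 with single arrays left out. Over both strains at 5 days it was 4, and became 2 with the brighter probes, which hold neither Ccl4 nor Cxcl10, and 3 to 4 with single arrays left out. Median centring and the eBayes trend each removed Cx3cl1 from these calls as well. No member difference that was called or had an unadjusted p under 0.05 changed its sign in the settings tried. Apart from median centring, the fall of Cx3cl1 in C57BL/6J was lost with the eBayes trend (adjusted p = 0.123) and with only the arrays compared (0.032), and the fall over both strains with the trend alone (0.0525). The cause was not tested.

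Over all probes, calls at 5 days in C57BL/6J went from 628 to 395 with the trend, 1135 at a threshold of 0.05 and 1769 with SAM, and in DBA/2J from 31 to 8 with median centring, 10 with the trend, 3 with only the arrays compared, 81 at 0.05, 100 with the replicate block and 206 with SAM. The share of rises in C57BL/6J was 39.3% with quantile normalization, 62.5% with the trend and 66.2% with only the arrays compared. The replicate block changed no member call in any comparison (2 probes at 5 days in C57BL/6J and 4 over both strains, as without it). 7 of the 12 member probes were among the dimmer probes, so low expression limits what their values can show.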
